A study of Mus musculus with 32 samples.

Results

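The proteasome is the large protease that degrades proteins tagged with ubiquitin, and its subunit genes were followed here in mouse whole blood taken 24 h after X-rays or sham exposure. The members were all probes of the array whose gene name begins with Psma to Psmg and a number, which gave 62 probes for 49 genes of the 30139 genes named on the array. To be kept, a probe needed a signal clearly above its background in 4 or more arrays of any group. 58 probes for 46 genes passed, of which 5 genes are immune members (Psmb8, Psmb9, Psmb10, Psme1 and Psme2) and 41 are other members. The 4 probes that failed were those of Psma8, a testis-specific core subunit, of Psmb11, a thymus-specific one, of Psmc3ip, a meiotic recombination cofactor that shares only the name, and the second probe of Psmb9. The probes of Psma8 and Psmb11 were above background on 0 arrays, that of Psmc3ip on 4 and the second Psmb9 probe on 1 of 32.

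The arrays came from male mice labelled C57BL/6, 1 array per mouse: 5 WT mice at 8 Gy and 6 WT mice at 0 Gy, 6 ATM-/- mice at 4 Gy and 5 at 0 Gy, and 5 Scid mice at 3 Gy and 5 at 0 Gy. Atm is the kinase that signals DNA double-strand breaks, and Scid mice carry a defect of DNA-PK that blocks end joining and leaves them with few mature B and T cells. The dose was set for each genotype at the level lethal to a part of the animals, so genotype and dose changed together and cannot be told apart. Ages were not used here. Blood was drawn by cardiac puncture into an RNA stabiliser, and globin transcripts were depleted from all samples.

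The proteasome core is a stack of alpha and beta rings, closed at its ends by a regulatory particle with a base of ATPases and a lid, or by activator caps. Psmb5, Psmb6 and Psmb7 carry the standard catalytic sites. Interferon induces Psmb8, Psmb9 and Psmb10, which replace them in the immunoproteasome and favour peptides for MHC class I, as well as Psme1 and Psme2, the subunits of the PA28 activator. Reticulocytes, the immature red cells in blood, depend on protein degradation to finish their maturation.

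Values are log2 processed signals minus the 75th percentile of the 5829 probes that were well above background on all 32 arrays, so 0 stands for that percentile and most members lie below it. A level of 1 probe cannot be set against that of another. Between 20% and 58.6% of probes were well above background, with 45.7% to 58.6% on WT 8 Gy arrays and 28.0% to 53.3% on WT 0 Gy arrays. Arrays of WT 8 Gy replicates 1 and 2, ATM-/- 4 Gy replicate 3 and WT 0 Gy replicate 5 carried bright liver transcripts: the mean of 5 hepatocyte markers was 4.12, 4.61, 4.33 and 4.73 there and at most 1.45 on the other arrays. The count of called members in WT mice is given with and without them, and in the other 7 comparisons it was 0 both ways. In these bulk samples fewer cells of a type and less RNA per cell cannot be told apart. Of the 46 members, 19 were above background on every array and each was above background on at least 1 array of every group, Psmd14 on the fewest arrays, 18.

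In WT mice 3 members fell and 1 rose after 8 Gy. Psme3 encodes the PA28gamma activator, a nuclear cap of the core; Psmf1 encodes PI31, an inhibitor and assembly partner of the proteasome; Psmd4 encodes the ubiquitin receptor Rpn10 of the base. These 3 fell by 1.68, 1.63 and 1.13 on the log2 scale against WT 0 Gy, while most other members lay above 0. The riser was Psma6, an alpha ring subunit, by 1.36. All 46 members were tested in limma's fit over 15158 genes with Benjamini-Hochberg adjustment, at an adjusted p under 0.05. In that comparison 9.28% of all genes were called, 5.19% higher and 4.08% lower, so 4 of 46 members is a share near the background. At an unadjusted p under 0.05 there were 23 of 46 members, against 28.3% of all genes. The split of all called genes depended on the scaling, with 787 higher and 619 lower here, and 172 higher and 920 lower with scaling on all probes. Without the 4 arrays with bright liver transcripts, 3 members were called, all lower. Of all genes 282 were called higher and 460 lower there.

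Psme3 read -3.44, -3.07, -3.87, -3.47 and -3.77 on the 5 WT 8 Gy arrays, against -2.18, -1.94 and -1.18 (lowest, median and highest) on the 6 WT 0 Gy arrays. The groups did not overlap. Its log2 fold change was -1.68 ± 0.39 (SE; adjusted p = 0.0048, limma). Psmd4 read 1.13, 0.98, 1.31, 1.17 and 1.59 on the WT 8 Gy arrays, against 1.66, 2.48 and 2.68 on the WT 0 Gy arrays. Again every irradiated array lay below every sham array. The log2 fold change of Psmd4 was -1.13 ± 0.24 (SE; adjusted p = 0.0025, limma).

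Psmf1 read -3.96, -4.06, -3.01, -2.55 and -2.65 on the WT 8 Gy arrays, against -2.87, -1.53 and -0.90 on the WT 0 Gy arrays. Its groups overlapped through the lowest sham array, replicate 5, which is one of those with bright liver transcripts. The log2 fold change was -1.63 ± 0.34 (SE; adjusted p = 0.0016, limma). Without the 4 liver-bright arrays the log2 fold changes were -1.38 for Psmf1, -1.15 for Psmd4 and -1.89 for Psme3, with adjusted p = 0.012, 0.00887 and 0.020 in limma. Groups that do not overlap were found for 2 members, both lower, against 3.45% of all genes lower and 4.96% higher. The calls of these 3 members held in 14 of 15 settings, the one reported included, and in all 11 omissions of a WT array. The exception was scaling to spike-in controls, where Psmf1 was -0.75, Psme3 -0.80 and Psmd4 -0.24 while the median of all genes stood at 1.29.

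**Figure D1:**
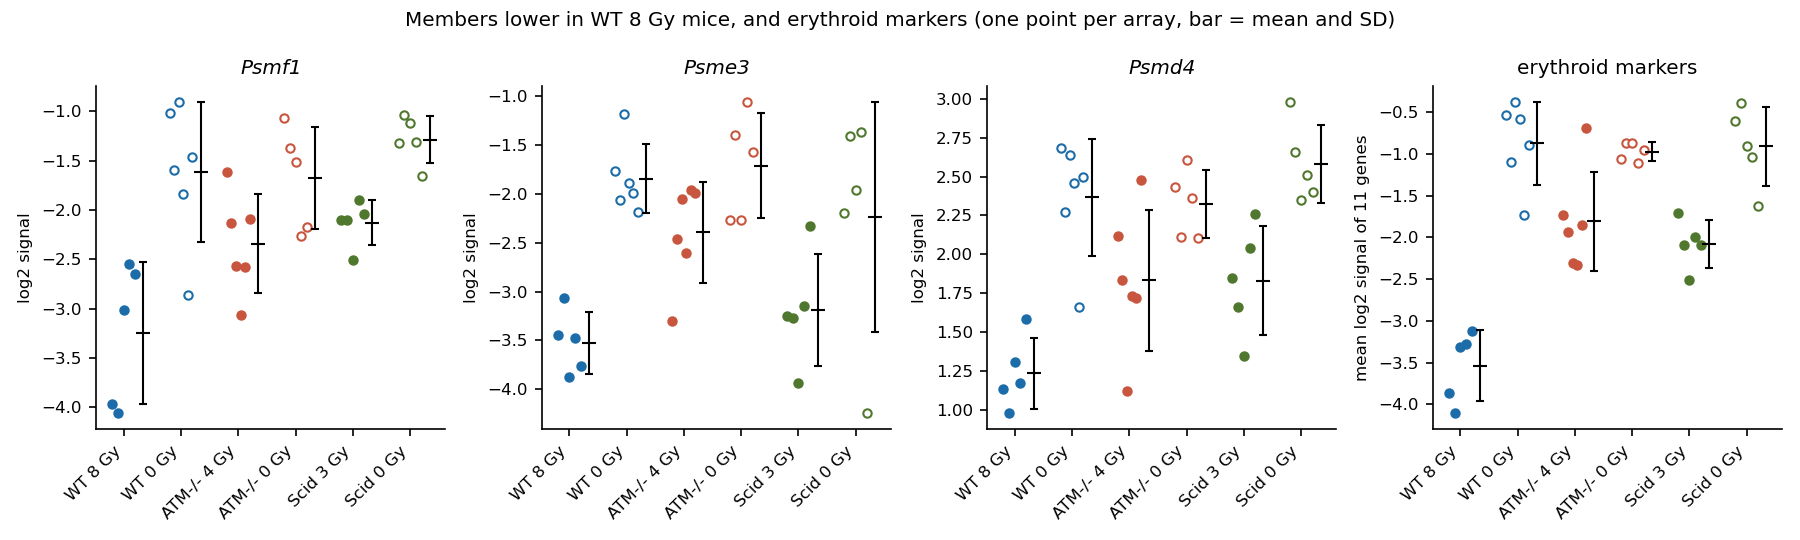
Levels of Psmf1, Psme3 and Psmd4 and the mean of 11 erythroid markers, as log2 signal relative to the 75th percentile of detected probes, by group, with 1 point per array and bars for the mean and SD. Psme3 lies between -3.87 and -3.07 on WT 8 Gy arrays, against -2.18 to -1.18 on WT 0 Gy arrays, and 1 Scid 0 Gy array reads lower still, at -4.25.

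Most erythroid markers were also lower in WT 8 Gy mice, as these 3 genes were. Whether they varied together from array to array was not tested. Of 11 erythroid markers measured, 8 fell in WT mice after 8 Gy and 0 rose, the median log2 fold change being -2.26 (all genes 0.41). The mean of their log2 levels ranged from -4.10 to -3.12 on WT 8 Gy arrays and from -1.73 to -0.38 on WT 0 Gy arrays. Their summed level on the log2 scale ranged from 6.998 to 7.98 on WT 8 Gy arrays and from 7.47 to 9.18 on WT 0 Gy arrays. The 11 include the globin gene Hba-a1, although globin transcripts were depleted, and a sum weights the brightest genes most. Ank1, the ankyrin of the red cell skeleton, was above background on 0 of 5 WT 8 Gy arrays. The part of red cell precursors in the lower Psmf1, Psme3 and Psmd4 was not tested. Of 6 monocyte markers 2 rose (Cd14 and Lyz2), and the lowest, Cx3cr1, had -1.24 without passing the test. Among T cell markers 1 of 8 fell, Cd8a, and none of the B cell, NK cell, neutrophil, platelet, hepatocyte and heart muscle markers was called. Within scan day 1 (1 WT 8 Gy array, 3 WT 0 Gy arrays) the differences were -2.79 for Psmf1, -1.40 for Psmd4 and -1.78 for Psme3. Within scan day 2 (3 WT 8 Gy arrays and 2 WT 0 Gy arrays) they were -0.86, -0.91 and -1.53, with no change of direction.

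The sequences just upstream of Psmd4 and Psme3, which both fell in WT mice, are shown with that between Psmb9 and Tap1, a neighbouring pair transcribed in opposite directions. They are RefSeq upstream windows of build GRCm38.p6, read 5′ to 3′ on the gene's strand and ending at its start. Capitals mark a pair of GAAA runs with 2 bases between them, read on either strand, the core of the interferon response element.
Psmd4 upstream, chr3:95042615-95042864, minus strand: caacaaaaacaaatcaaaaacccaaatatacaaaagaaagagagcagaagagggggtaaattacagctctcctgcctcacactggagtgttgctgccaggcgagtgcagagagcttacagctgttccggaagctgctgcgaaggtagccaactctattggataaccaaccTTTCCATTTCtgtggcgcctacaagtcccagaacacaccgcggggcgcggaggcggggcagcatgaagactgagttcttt
Psme3 upstream, chr11:101315963-101316212, plus strand: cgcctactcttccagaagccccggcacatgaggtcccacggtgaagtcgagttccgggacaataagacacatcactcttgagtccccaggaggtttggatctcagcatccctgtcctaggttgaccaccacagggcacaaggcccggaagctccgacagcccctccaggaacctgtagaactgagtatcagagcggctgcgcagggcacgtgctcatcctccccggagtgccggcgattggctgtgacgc
Psmb9 upstream to the start of Tap1, chr17:34187331-34187555, minus strand: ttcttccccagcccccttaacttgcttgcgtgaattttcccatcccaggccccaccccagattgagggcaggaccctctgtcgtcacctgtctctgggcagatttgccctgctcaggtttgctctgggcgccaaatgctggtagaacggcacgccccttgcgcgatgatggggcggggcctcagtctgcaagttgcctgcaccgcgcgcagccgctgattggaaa
Of 41 members with a window in the table, 5 held TGACNNNGC (10.2% of 32851 windows of the same length), 3 held the GAAA pair (2.98%), 2 held AGATAA (9.99%), 2 held TTCNNNGAA (7.02%) and 1 held CCACACCC (3.2%), each searched on both strands over 250 bases. Psmd4 was among those with the GAAA pair, and the Psme3 window held none of the 5 motifs. A match is a description of letters in the window only.

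Psma6 read -3.15, -3.26, -4.79, -3.56 and -4.04 on WT 8 Gy arrays, against -6.61, -5.06 and -3.95 on WT 0 Gy arrays. The groups overlapped, and the log2 fold change was 1.36 ± 0.44 (SE; adjusted p = 0.049, limma). The call held in 3 of 14 settings, the one reported included, and in 3 of 11 omissions of a WT array, and with normexp background correction the value was -0.41. It was not called without the 4 liver-bright arrays (1.23, adjusted p = 0.15, limma).

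The other 42 members did not pass the test in WT mice, and of these Psmd2 and Psmd8 had values below 0, at -0.32 and -0.042. Of 46 members 41 had a log2 fold change above 0 (68.8% of all genes did), and their median was 0.86, against 0.41 for all genes. The median was 0.98 for the 7 alpha ring genes, 0.90 for the 4 non-catalytic beta ring genes, 0.78 for the 6 ATPases of the base, 0.86 for the 8 lid genes and 0.74 for the 7 assembly chaperones. Other classes lay lower, at -0.32 for the 3 base genes that are not ATPases, -0.58 for the 2 activators Psme3 and Psme4, and 0.21 for the 2 PA28 subunits Psme1 and Psme2. Psmg1, a chaperone of core assembly named after its values were seen, had the highest value at 1.49. Both medians depended on the processing. The member and all-gene medians were 0.43 and -0.02 with scaling on all probes, and -0.34 and -0.85 with normexp. The excess over all genes remained in both settings. Without the 4 liver-bright arrays the medians lay closer, at 0.66 and 0.49. With the share of detected probes as a covariate they were 0.08 and 0.19, so the members no longer exceeded all genes. Leaving out WT 0 Gy replicate 5, a liver-bright array, raised the members called to 22, with 19 higher and the same 3 lower. The count of all genes called without that array is not given here, so the 22 are not read as particular to the members.

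**Figure D2:**
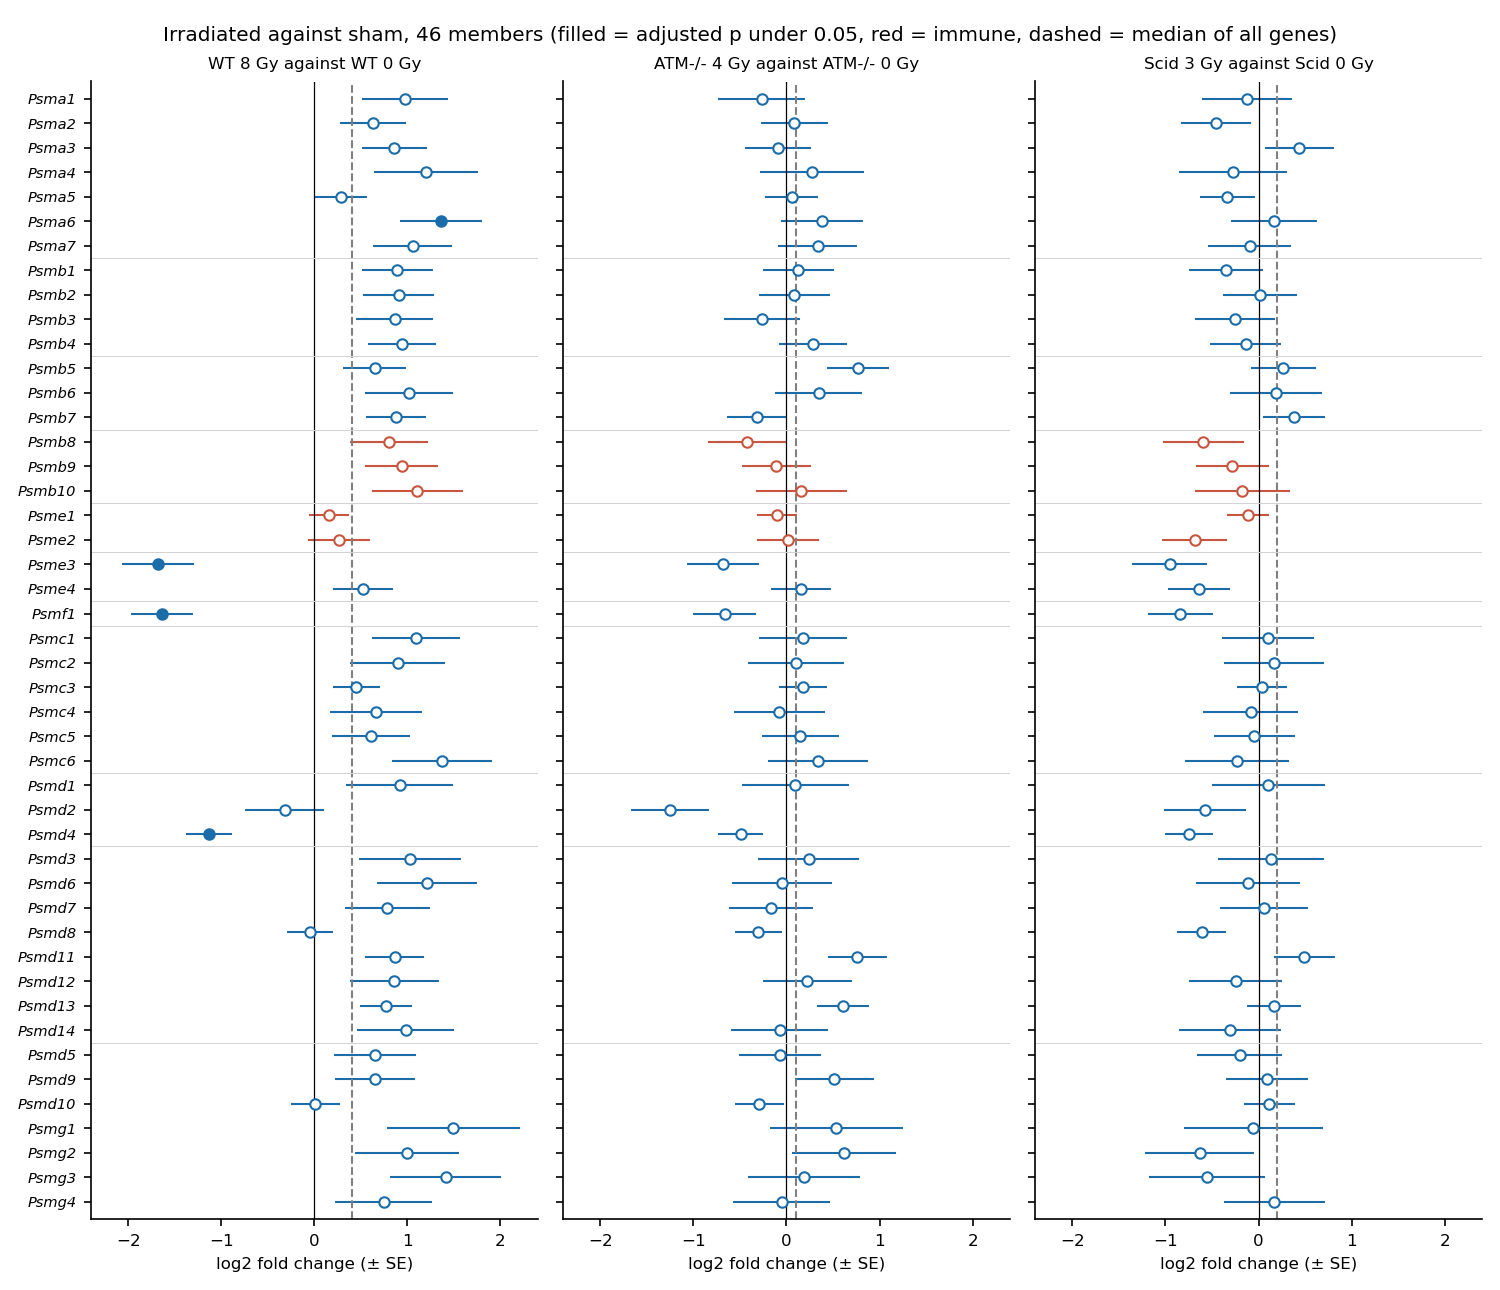
Log2 fold change with SE of the 46 members for the irradiated against the 0 Gy mice of each genotype, grouped by role from top to bottom, with filled points for an adjusted p under 0.05, red for immune members and a dashed line at the median of all genes. Psme3, Psmf1 and Psmd4 lie left of 0 in all 3 panels, and in WT mice 37 members lie right of the dashed line, Psma6 being the 1 filled point among them.

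Immune members were not called in any irradiation comparison. Psmb8 read -1.86, -2.53, -2.54, -2.45 and -2.34 on WT 8 Gy arrays, against -4.73, -2.93 and -2.04 on WT 0 Gy arrays. Psmb9 read -2.12, -2.80, -2.87, -3.09 and -2.72 on WT 8 Gy arrays, against -3.24, -2.32, -4.25, -3.77 and -4.73 on 5 WT 0 Gy arrays, the other array having an outlier spot that was dropped. Psmb10 read -0.63, -1.43, -2.70, -1.40 and -1.47 on WT 8 Gy arrays, against -4.07, -2.65 and -1.61 on WT 0 Gy arrays. The groups overlapped in all 3 genes, with 1 WT 8 Gy array of Psmb8, 1 of Psmb9 and 4 of Psmb10 above the highest sham array. Their log2 fold changes were 0.80 ± 0.42, 0.94 ± 0.39 and 1.11 ± 0.49 (SE), with adjusted p = 0.20, 0.12 and 0.14 in limma. Of the PA28 subunits, Psme1 had 0.16 ± 0.22 and Psme2 0.26 ± 0.34 (SE), both below the all-gene median of 0.41. Psme1 read -0.90, -0.59, -0.73, -1.08 and -0.93 on WT 8 Gy arrays, against -1.42, -0.96 and -0.70 on WT 0 Gy arrays. Psme2 read 0.33, -0.06, -0.83, -0.52 and -0.29 on WT 8 Gy arrays, against -1.69, -0.40 and 0.19 on WT 0 Gy arrays.

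The standard catalytic subunits had log2 fold changes of 0.65 to 1.02 in WT mice, against 0.80 to 1.11 for their immune counterparts, and none was called. Within scan day 1 the differences were 1.24 for Psmb5, 2.31 for Psmb6 and 1.02 for Psmb7, and within scan day 2 they were 0.01, 0.09 and 0.79. Psmb5, Psmb6 and Psmb7 were called higher without WT 0 Gy replicate 5 (at 0.91, 1.42 and 1.03), and Psmb9 without WT 0 Gy replicate 2 (at 1.28). Psmb5 read 0.75, 0.73, -0.04, 0.08 and 0.33 on WT 8 Gy arrays, against -0.73, -0.61 and 1.02 on WT 0 Gy arrays. Psmb6 read 0.06, 0.23, -2.10, -1.89 and -1.88 on WT 8 Gy arrays, against -3.38, -2.57 and -0.11 on WT 0 Gy arrays. The 3 highest Psmb6 values in WT mice were those of the 3 liver-bright WT arrays. Psmb7 read -2.62, -2.20, -2.80, -2.74 and -2.67 on WT 8 Gy arrays, against -3.98, -3.51 and -2.75 on WT 0 Gy arrays. The log2 fold changes were 0.65 ± 0.34 for Psmb5, 1.02 ± 0.47 for Psmb6 and 0.88 ± 0.32 for Psmb7 (SE), with adjusted p = 0.20, 0.15 and 0.076 in limma.

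In ATM-/- mice the groups of the immune members overlapped. Psmb8 at 4 Gy had a lowest, median and highest value of -3.98, -2.54 and -2.19, against -1.93, -1.88, -2.86, -2.21 and -2.84 at 0 Gy. Psmb9 at 4 Gy had -3.97, -2.74 and -2.46, against -2.42, -2.52, -3.34, -2.61 and -3.20 at 0 Gy. The log2 fold changes of the 5 immune members ran from -0.42 to 0.16, with a median of -0.10 (all genes 0.10). In Scid mice all 5 immune members had a value below 0, from -0.69 (Psme2) to -0.11 (Psme1), with a median of -0.28 (all genes 0.20). These directions did not hold throughout: within scan day 2, where the 1 Scid 0 Gy array was the dim replicate 5, Psmb8 had 0.52, Psmb9 0.48 and Psmb10 1.996. Without Scid 0 Gy replicate 4 Psmb9 had 0.01 and Psmb10 0.18. Psmb8 read -4.50, -3.95, -3.96, -4.41 and -4.41 on Scid 3 Gy arrays, against -4.07, -4.03, -3.47, -2.001 and -4.70 on Scid 0 Gy arrays. Psme2 read -1.94, -1.07, -1.43, -1.47 and -2.22 on Scid 3 Gy arrays, against -1.004, -1.04, -0.96, -0.27 and -1.43 on Scid 0 Gy arrays. For Psme2 the log2 fold change was -0.69 ± 0.35 (SE; adjusted p = 0.46, limma).

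**Figure D3:**
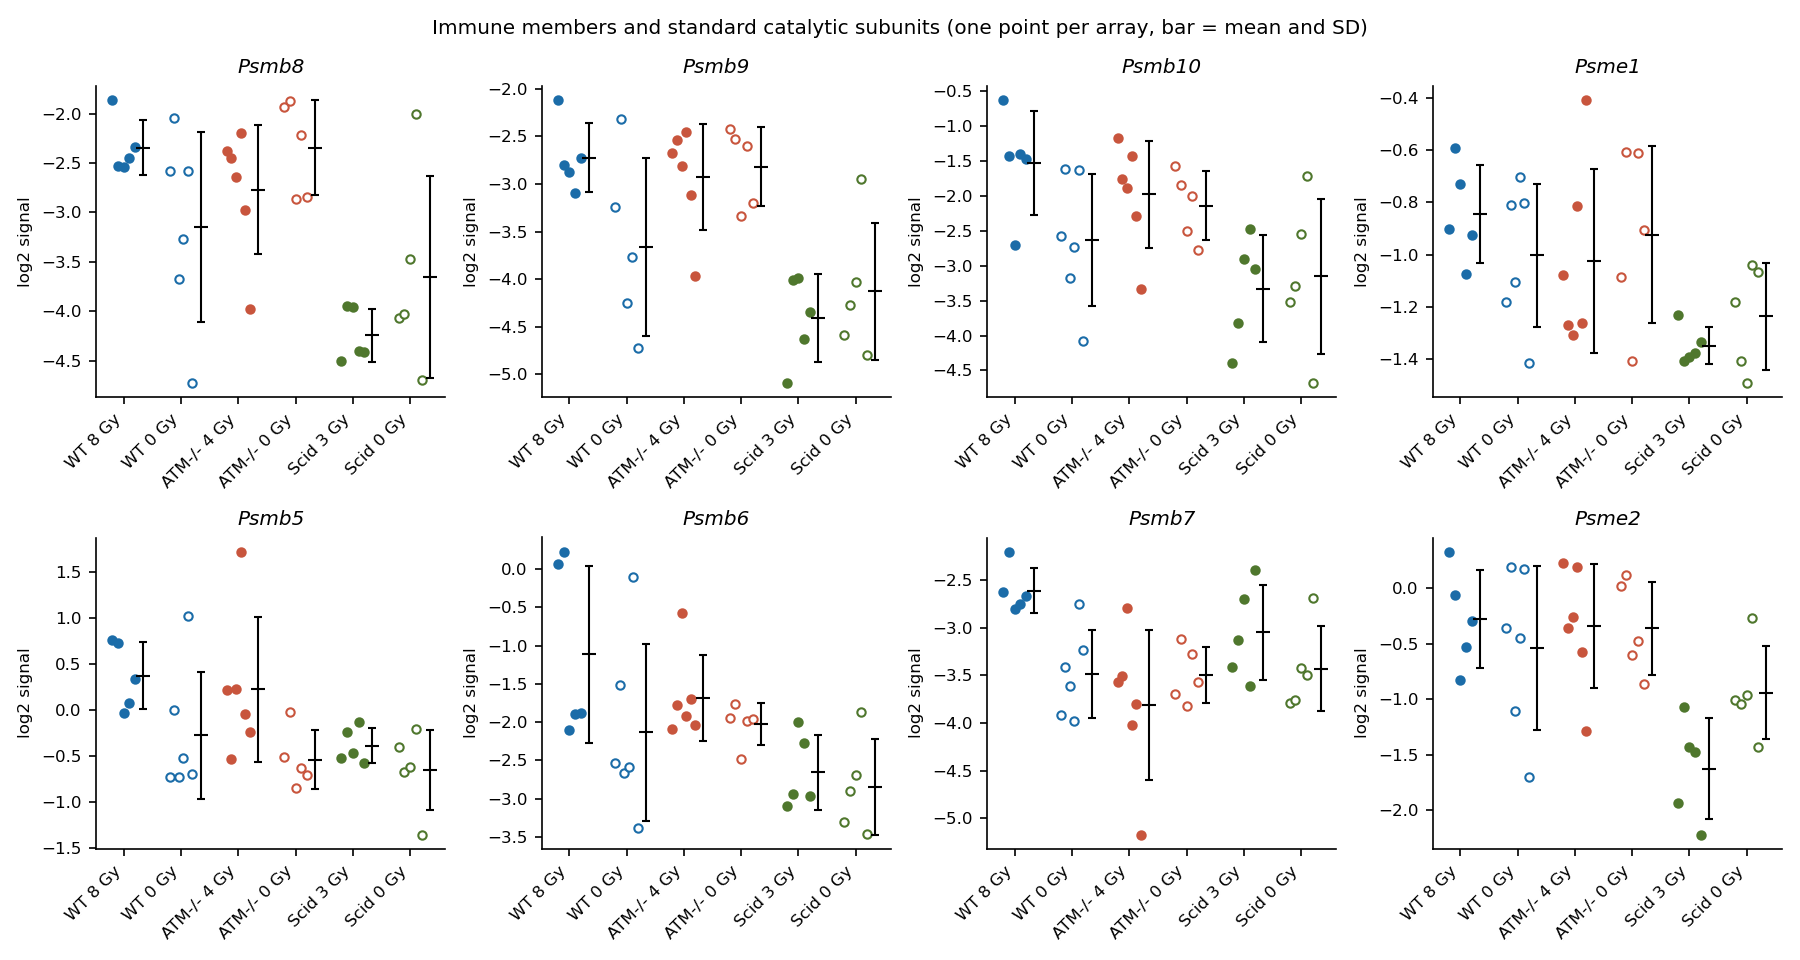
Levels of the 5 immune members and of Psmb5, Psmb6 and Psmb7, as log2 signal relative to the 75th percentile of detected probes, by group, with 1 point per array and bars for the mean and SD. Psmb8 spans -4.73 to -2.04 on WT 0 Gy arrays and -2.54 to -1.86 on WT 8 Gy arrays, so the groups overlap.

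The exchange of catalytic subunits was read as the log2 ratio of each immune subunit over the standard one it replaces, taken on each array. A ratio of 2 probes has no absolute meaning, so only differences between groups were compared. The ratio of Psmb8 over Psmb5 averaged -2.99 ± 0.74 (SD, n = 6) in ATM-/- 4 Gy mice and -1.80 ± 0.30 (SD, n = 5) in ATM-/- 0 Gy mice, a difference of -1.19 (exact two-sided permutation p = 0.013). It averaged -3.85 ± 0.30 in Scid 3 Gy mice and -3.00 ± 0.74 in Scid 0 Gy mice (SD, n = 5 each), a difference of -0.86 (exact two-sided permutation p = 0.016). In WT mice it averaged -2.71 ± 0.31 at 8 Gy and -2.87 ± 0.85 at 0 Gy (SD, n = 5 and 6), a difference of 0.15 (exact two-sided permutation p = 0.73). Sham ATM-/- mice stood 1.07 above sham WT mice (exact two-sided permutation p = 0.030). Adjusted over the 15 ratio tests none of these passed, the adjusted p being 0.12 for both irradiated mutants and 0.15 for the sham mice. The other 10 ratio tests beside Psmb8 over Psmb5, for Psmb9 over Psmb6 and Psmb10 over Psmb7, had exact permutation p = 0.11 or higher. With normexp the differences of Psmb8 over Psmb5 were -0.63 in WT mice, opposite in sign to the value above, -0.63 in ATM-/- mice, -0.42 in Scid mice and 0.48 between sham ATM-/- and WT mice (exact permutation p = 0.18, 0.14, 0.48 and 0.37). Without Scid 0 Gy replicate 4 the Scid difference was -0.55. The second Psmb5 probe had a log2 fold change of 0.15 in ATM-/- mice, against 0.77 for the probe used.

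**Figure D4:**
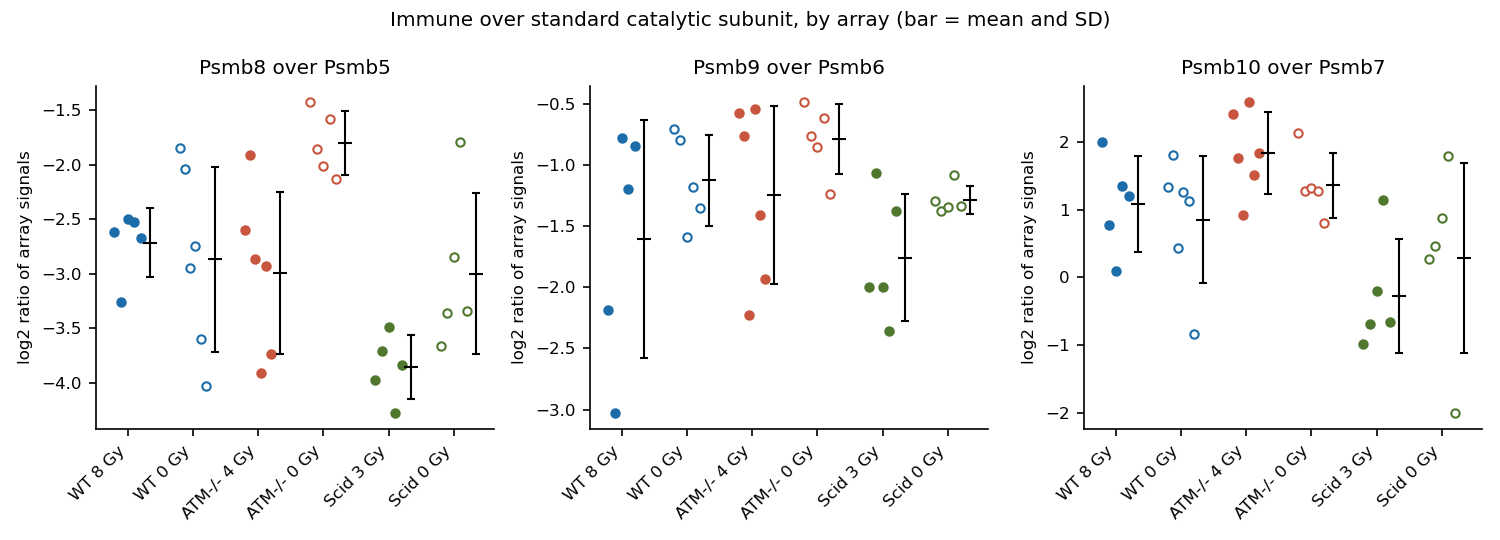
Log2 ratio of array signals of an immune over a standard catalytic subunit, by group, with 1 point per array and bars for the mean and SD. For Psmb8 over Psmb5 the ATM-/- 4 Gy arrays average -2.99 and the ATM-/- 0 Gy arrays -1.80, with overlap between the groups.

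In ATM-/- and Scid mice no member was called after irradiation (limma, adjusted p under 0.05). Of all genes 0.719% were called in ATM-/- mice, 0.488% higher and 0.231% lower, and 1.19% in Scid mice, 0.158% higher and 1.03% lower. At an unadjusted p under 0.05 there were 4 of 46 members in each genotype, against 11.3% and 11.8% of all genes. Values above 0 were found for 27 members in ATM-/- mice (57.9% of all genes) and 17 in Scid mice (63.3% of all genes). The member median was 0.09 in ATM-/- mice (all genes 0.10) and -0.12 in Scid mice (all genes 0.20). The 3 members that fell in WT mice had values below 0 in both. In ATM-/- mice they were -0.49 ± 0.24 for Psmd4, -0.66 ± 0.34 for Psmf1 and -0.68 ± 0.39 for Psme3 (SE; adjusted p = 0.45, 0.47 and 0.56, limma). In Scid mice they were -0.75 ± 0.25 for Psmd4, -0.84 ± 0.35 for Psmf1 and -0.95 ± 0.40 for Psme3 (SE; adjusted p = 0.17, 0.30 and 0.32, limma).

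Psmd4 read 1.85, 1.66, 1.35, 2.04 and 2.26 on Scid 3 Gy arrays, against 2.98, 2.66, 2.35, 2.51 and 2.403 on Scid 0 Gy arrays. Psmf1 read -2.10, -2.10, -2.51, -1.90 and -2.04 on Scid 3 Gy arrays, against -1.32, -1.03, -1.12, -1.31 and -1.65 on Scid 0 Gy arrays. In both genes the irradiated arrays lay below all sham arrays. Psme3 read -3.25, -3.27, -3.94, -3.15 and -2.33 on Scid 3 Gy arrays, against -2.19, -1.40, -1.96, -1.36 and -4.25 on Scid 0 Gy arrays. The groups overlapped through Scid 0 Gy replicate 5, one of 2 arrays with under 25% of probes detected. Without that array Psme3 was called lower, at -1.46 (adjusted p = 0.0091, limma). Scid groups did not overlap for 3 of 46 members, all lower, against 1.89% of all genes lower and 2.39% higher. Beside Psmd4 and Psmf1 this was Psmd8, a lid subunit named after its values were seen, at -0.61 ± 0.26 (SE; adjusted p = 0.32, limma). Within scan day 1 (2 Scid 3 Gy arrays, 4 Scid 0 Gy arrays) the differences were -0.91 for Psmf1, -0.87 for Psmd4 and -1.53 for Psme3. Within scan day 2 (2 Scid 3 Gy arrays, 1 Scid 0 Gy array) they were -0.55, -0.71 and 0.70, the Psme3 value resting on Scid 0 Gy replicate 5, the only sham array of that day.

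Psme3 at ATM-/- 4 Gy had a lowest, median and highest value of -3.30, -2.26 and -1.96, against -2.26, -1.39, -2.27, -1.05 and -1.57 at 0 Gy. Psmf1 had -3.07, -2.35 and -1.61 at 4 Gy, against -1.07, -1.38, -1.51, -2.26 and -2.17 at 0 Gy. Psmd4 had 1.12, 1.78 and 2.48 at 4 Gy, against 2.43, 2.12, 2.61, 2.36 and 2.10 at 0 Gy. All 3 overlapped. The 1 member without overlap in ATM-/- mice (0.884% of all genes were lower and 0.778% higher without overlap) was Psmd2, a base scaffold subunit named after its values were seen, at -1.25 ± 0.42 (SE; adjusted p = 0.17, limma). Erythroid markers fell there for 1 of 11 (Epb42) and in Scid mice for 4 of 11, with median log2 fold changes of -1.04 and -1.51. In each genotype 3 of 11 lay above 0, up to 0.92 in ATM-/- and 0.59 in Scid mice. Their summed level on the log2 scale averaged 8.86 at 4 Gy and 8.55 at 0 Gy in ATM-/- mice. For Scid mice it averaged 8.87 at 3 Gy and 8.83 at 0 Gy. These sums include Hba-a1, a depleted globin, so they are not read as the amount of red cell RNA. Within scan days, Psmf1 and Psmd4 differed by -0.06 and -0.26 in ATM-/- mice on day 1 (1 array at 4 Gy, 4 at 0 Gy), and by 0.08 and 0.37 on day 3 (1 array each), which rest on 2 of the 6 irradiated arrays, one of them the dim replicate 6. The other 4 irradiated arrays were scanned on day 2 with no ATM-/- 0 Gy array, so dose and scan day are largely confounded in ATM-/- mice. Psme3 differed by -1.55 on day 1 and -0.42 on day 3.

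No difference between the responses of the genotypes passed the test. The response of ATM-/- minus that of WT was 0.999 ± 0.55 for Psme3, 0.97 ± 0.48 for Psmf1 and 0.64 ± 0.34 for Psmd4 (SE; adjusted p = 0.55, 0.52 and 0.54, limma). The response of Scid minus that of WT was 0.73 ± 0.56, 0.79 ± 0.49 and 0.38 ± 0.35 for the same genes (SE; adjusted p = 0.67, 0.66 and 0.70, limma). No member and 0% of all genes were called in the 3 comparisons of responses, with 3, 7 and 0 members at an unadjusted p under 0.05 for ATM-/- minus WT, Scid minus WT and Scid minus ATM-/-. Of all genes 9.65%, 7.46% and 4.41% were at that level. Sham ATM-/- against sham WT mice, and sham Scid against sham WT mice, likewise gave 0 called members and 0% of all genes (limma), with 1 and 0 members at an unadjusted p under 0.05 (2.12% and 3.79% of all genes). Groups did not overlap for 0 members in either. Of all genes 0.0462% were higher and 0.0594% lower without overlap in sham ATM-/- mice, and 0.0462% higher and 0.0396% lower in sham Scid mice. The 5 immune members had a median of 0.50 in sham ATM-/- over WT mice and -0.47 in sham Scid over WT mice, with all-gene medians of 0.07 and -0.11. With normexp the first of these immune medians was 0.07. B cell markers had a median of 1.66 and -1.36 in the same comparisons, with 0 of 7 called, and T cell markers 0.06 and -1.38, with 0 of 8 called. Some sham arrays stood apart in the mean log2 level of these markers. Scid 0 Gy replicate 4 read -3.64 (B cell) and -2.61 (T cell), against at most -6.16 and -4.70 on the other Scid 0 Gy arrays. WT 0 Gy replicates 3 and 6 read -7.38 and -6.09 (B cell), and -4.94 and -4.36 (T cell). The other WT 0 Gy arrays read at least -4.88 and -2.56. Why these arrays differed was not tested. The part of B and T cells in the immune members' values was not tested either.

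Partners of the proteasome were read from lists of their own. Among 17 measured regulators and associated factors 1 rose and 3 fell in WT mice after 8 Gy (all genes 5.19% higher and 4.08% lower). Fbxo7, the ubiquitin ligase subunit that binds PI31, fell by 2.53 and the deubiquitinase Usp14 by 1.16 (adjusted p = 2.88e-05 and 0.015, limma). The riser was Ecpas, a scaffold of the proteasome, at 0.90 (adjusted p = 0.025, limma), named after its values were seen. Fbxo7 read -1.69, -2.27, -1.92, -1.75 and -1.54 on WT 8 Gy arrays, against -0.16, 0.83 and 1.44 on WT 0 Gy arrays. In Scid mice Fbxo7 fell by 1.67 and Usp14 by 1.35 (adjusted p = 0.027 and 0.028, limma). Each of these Scid calls held in 3 of 10 omissions of a Scid array, with an adjusted p of up to 0.13 for Fbxo7 and 0.12 for Usp14. In ATM-/- mice Fbxo7 had -0.88 ± 0.38 (SE; adjusted p = 0.34, limma). In ATM-/- mice no regulator was called, and Sem1, a small lid subunit, had -0.40. That value rested on ATM-/- 4 Gy replicate 6, the array with the fewest probes detected, where Sem1 read -2.68, and it was 0.08 without that array.

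Genes of MHC class I presentation had a median of 0.92 in WT mice (all genes 0.41), with 3 of 16 called higher: the peptide transporter Tap1 at 1.30, the disulphide isomerase Pdia3 at 1.29 and H2-T23 at 0.97. Tap1 was above background on 5 of 5 WT 8 Gy arrays and 3 of 6 WT 0 Gy arrays, and its value was -0.98 with normexp. The call held in 3 of 14 settings for Tap1 and Pdia3 and in 6 of 14 for H2-T23. B2m and H2-D1 had 0.11 and 0.12 in ATM-/- mice and 0.83 and 0.51 in Scid mice, none called. Of 13 interferon response regulators 2 rose in WT mice, Irf9 at 1.80 and Socs1 at 1.58, though Socs1 had -0.46 with normexp, and the median of the list was 0.38. Irf9 was called in 8 of 14 settings, with a lowest value of 0.42, and Socs1 in 4 of 14. Jak1 and Irf1, the brightest of this list, had -0.13 and -0.05 in ATM-/- mice and 0.66 and -0.45 in Scid mice. Without Scid 0 Gy replicate 5, where Jak1 read -3.76 and Irf1 -5.19, the Scid values were 0.09 and -1.06. Of 14 ubiquitin and p97 genes 1 fell in WT mice, the polyubiquitin gene Ubb at -1.09, called in 9 of 15 settings and 9 of 11 omissions. Among all genes 5.19% were called higher and 4.08% lower in WT mice. The counts of these lists were not tested against those shares. Ubb had -0.43 in ATM-/- mice and -0.76 in Scid mice, not called in either.

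The 11 members with several kept probes allowed a check of probe choice. In WT mice all 11 had probes of the same sign, with the largest difference between probes at 0.53. In ATM-/- mice 1 gene (Psma4) and in Scid mice 2 genes (Psmd9 and Psmd10) had probes of opposite sign. The largest difference between probes was 1.34 in ATM-/- mice, for Psmd12, and 0.98 in Scid mice, for Psmd10. Each rests on a dim second probe. That of Psmd12 was above background on 4 WT 8 Gy arrays, 1 WT 0 Gy array and 2 ATM-/- arrays at each dose. That of Psmd10 was above background on 4 WT 8 Gy, 3 WT 0 Gy, 0 Scid 3 Gy and 2 Scid 0 Gy arrays. Both probes were kept through WT 8 Gy arrays alone, which favours a WT value above 0. For these genes the same sign in WT mice is therefore no independent check. The 3 Psme2 probes gave 0.26, 0.35 and 0.44 in WT mice and -0.69, -0.69 and -0.07 in Scid mice. Mouse Psme2 has near-identical copies, so its values are uncertain. In the files' positions (build mm9), the probe of Psme3 lies at chr11:101184289-101184348, that of Psmd4 at chr3:94836627-94836686 and that of Psmf1 at chr2:151555353-151555412.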

How the data were processed

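Whole-blood RNA of 32 mice was hybridised to 1-colour arrays, 1 array per mouse. The deposited scanner files hold signal intensity made by the authors with Agilent Feature Extraction, version 11.5.1.1 per the file headers and 12.0.2 per the submitters' processing notes. A table of log2 values deposited by the authors was set against these files. For at least 98.5% of compared probes it differed from the log2 processed signal by 1 constant per array, within 0.01, and it served as an alternative. No count of reads exists, and the number of arrays limits the precision.

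From these files, spots marked as outliers were dropped (125 to 324 per array), spots of a probe were averaged, and log2 intensity was scaled per array to the 75th percentile over 5829 probes that every array detected, because 28 of 32 arrays had under 50% of probes detected. 18365 of 39429 probes were kept, and each gene took the kept probe with the highest mean. The 6 group means were fitted in limma 3.58.1 (R 4.3.3) over 32 arrays, with 8 comparisons and Benjamini-Hochberg adjustment over 15158 genes. Exact permutation tests used scipy 1.17.1. Genes were named through RefSeq accessions for 27508 probes. Named genes were the 5 immune members, Psmb5, Psmb6, Psmb7, every called member, failed probes, and up to 3 called genes, or the 2 brightest, of each partner list. Some genes that this rule names are not reported here. The members, lists and the scaling were chosen with earlier results of these data known. On simulated data for WT 8 Gy against WT 0 Gy (14897 genes), 6 of 100 genes changed by a log2 of 1 and 61 of 100 changed by 2 were recovered, with 3 false calls. P-values measure the spread between arrays of a group, 1 mouse each, which includes differences between slides and scan days. In limma that spread is shared over the 6 groups. Alternatives covered background correction, scaling, filters, probe choice, batches, replicate numbers, the series matrix and omitted arrays. Centring on the median of the tested genes and leaving out 4 liver-bright arrays were added after seeing the data.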

Additional observations from a re-analysis of the deposited data

Results flagged for a closer look

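Of 72 groups of named members examined, 4 held an array that stood apart from its group, where chance gives about 1 in 20. Psme3 on Scid 0 Gy replicate 5 read -4.25, with the nearest of the other arrays at -2.19. Psmb5 on ATM-/- 4 Gy replicate 4 read 1.72, with the nearest at 0.22. Psmb6 on ATM-/- 4 Gy replicate 3, an array with bright liver transcripts, read -0.58, with the nearest at -1.71. Psmb7 on WT 8 Gy replicate 2, also liver-bright, read -2.20, with the nearest at -2.62.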

How the results depend on the processing

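The 3 members lower in WT 8 Gy mice kept their direction in all settings and their call in all but spike-in scaling. That scaling moved the median of all genes to 1.29 in WT and -1.71 in ATM-/- mice. It called 22 members higher in WT mice, 34 lower in ATM-/- mice, 46 lower in the response of ATM-/- minus that of WT and 6 higher in the response of Scid minus that of ATM-/-. Of 15158 genes it called 4707 higher in WT mice and 11253 lower in ATM-/- mice. All-gene counts for the comparisons of responses are not given here. These member counts are therefore not read as particular to the members. Under spike-in scaling, the response of ATM-/- minus WT was -1.72 for Psmf1, -2.05 for Psmd4, -1.70 for Psme3 and -2.58 for Psmb5. The response of Scid minus ATM-/- was 1.69 for Psmd4 and 1.93 for Psme1. In ATM-/- mice it gave -1.65 for Psmb10, -1.79 for Psme2, -1.70 for B2m and -1.69 for H2-D1. Normexp gave -0.41 for Psma6, -0.46 for Socs1 and -0.98 for Tap1 in WT mice, and -0.11 for the Psmb9 over Psmb6 ratio in sham ATM-/- against sham WT mice. The causes were not tested. With the deposited series matrix 1 member, Psmd4, was lower in Scid mice. The count of all genes called there is not given here, so that call is not read as particular to the members. All genes called in WT mice were 787 higher and 619 lower, against 172 and 920 with scaling on all probes and 17 and 311 with normexp. Leaving out 1 array gave 3 to 22 called members in WT mice, 22 without WT 0 Gy replicate 5, and 0 to 1 in Scid mice, 1 without Scid 0 Gy replicate 5. Counts of all genes called in these omissions are not given here, so the member counts are not read as particular to the members. Deviations of same-numbered arrays correlated between -0.72 and 0.45, so the numbers were not taken to pair mice. With the replicate block 3 members were called in WT mice and 0 in the other comparisons. Of all genes, 453 were called higher and 528 lower in WT mice with that block, and 71 and 56 in ATM-/- mice. Over replicate numbers the Psmb8 over Psmb5 difference was -1.04 in ATM-/- and -0.86 in Scid mice. These ratio values carry no test. Dim arrays limit the precision of members near background.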
